A study of Mus musculus with 16 samples.

Results

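Cholesterol and fatty acids are built from the same precursor, cytosolic acetyl-CoA, and the genes of both routes were compared between metastases and primary lung adenocarcinomas of the mouse. The list held 32 genes, 20 of sterol synthesis and its control and 12 of fatty acid synthesis, elongation, desaturation and activation. Probe sets annotated to exactly 1 of these symbols were taken, the older names Sc4mol and Sc5dl included, and each gene was read at its brightest probe set over the 16 tumors. By this rule 28 genes were measured with 58 probe sets, 18 of the sterol arm and 10 of the fatty acid arm, of 12393 genes in all. No probe set carried the symbol of Insig1, Acat2, Acsl1 or Acsl3 alone, so these 4 members were not analysed here.

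All tumors came from p53R172H∆g/+ K-rasLA1/+ mice, which carry a mutant p53 allele beside a normal one and a latent oncogenic K-ras allele that becomes active by chance recombination in single cells. The metastases numbered 9, with 3 from mouse 1 (body wall, liver and inguinal region), 1 from mouse 2 (liver), 3 from mouse 3 (mediastinal lymph node, subcutaneous and heart) and 2 from mouse 4 (mediastinal lymph node and parietal pleura). The primary lung adenocarcinomas numbered 7, with 1 from each of mice 1 to 4 and 1 from each of mice 5, 6 and 7, for which no metastasis was analysed here. Mouse 6 was female and the others male, no age was given, and tumors of wild-type mice or normal tissues of the metastatic sites were not among the samples. Each tumor was measured on 1 array, and the highest median intensity of an array was 85.5. The epithelial markers Krt8 and Krt18 were between 1365 and 5069 in all 9 metastases, against 1684 to 5345 in the 7 primary tumors. Epcam was 41.7 to 436 in the metastases, against 545 to 1564 in the primary tumors. The lung marker Nkx2-1 was dim, at 13.957 to 58.3 in the primary tumors. It was 1.07 in the heart and 4.01 in the lymph node metastasis of mouse 3, and 15.7 to 56.5 in the other metastases. Over the 5 epithelial and lung markers listed, the median log2 difference, metastases minus matched primary tumors, was −0.69. The primary tumor of the same mouse was the reference for each metastasis, and the log2 difference given below is metastasis minus primary tumor from a limma fit with the mouse as a block over 13 tumors, with p-values adjusted over 22626 probe sets. That fit counts metastases of 1 mouse as separate samples. A second fit used all 16 tumors with the mouse as a random block. Tumors were analysed whole, so fewer cells of a type and less RNA per cell cannot be told apart.

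Sterol synthesis runs from acetyl-CoA through mevalonate and isoprenoid units to squalene, which is closed into a ring and trimmed to cholesterol. SREBP-2, the product of Srebf2, is the membrane-bound transcription factor that raises this route when cell sterols are low, and SREBP-1, the product of Srebf1, leans to the fatty acid route. In fatty acid synthesis ATP-citrate lyase makes cytosolic acetyl-CoA, acetyl-CoA carboxylase and fatty acid synthase make palmitate, and elongases and stearoyl-CoA desaturases lengthen and desaturate it. In the lung, alveolar type 2 cells use this route to make the lipids of surfactant.

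Both SREBP proteins work with NF-Y, which binds the CCAAT box, and with Sp1, which binds the GC box, so the promoters of the 4 members below are shown as the sequences in which those letters were searched. RefSeq promoters (build GRCm38.p6) were matched for 22 of the 28 genes, 28 promoters in all. The 250 bases before the start of transcription are printed 5′ to 3′ on the strand of the gene for Idi1 (chr13:8885356-8885605, plus strand), Hmgcs1 (chr13:119690101-119690350, plus strand), Elovl5 (chr9:77917115-77917364, plus strand) and Fasn (chr11:120824548-120824797, minus strand). Capitals mark each match, on either strand, to the CCAAT box (CCAAT or ATTGG), the GC box (GGGCGG or CCGCCC) and the E-box (CACGTG).
Idi1: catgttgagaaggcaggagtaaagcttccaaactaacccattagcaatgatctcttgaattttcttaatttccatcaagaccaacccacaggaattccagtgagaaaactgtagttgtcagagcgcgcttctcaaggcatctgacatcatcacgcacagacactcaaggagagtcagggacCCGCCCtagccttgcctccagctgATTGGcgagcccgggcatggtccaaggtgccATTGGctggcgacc
Hmgcs1: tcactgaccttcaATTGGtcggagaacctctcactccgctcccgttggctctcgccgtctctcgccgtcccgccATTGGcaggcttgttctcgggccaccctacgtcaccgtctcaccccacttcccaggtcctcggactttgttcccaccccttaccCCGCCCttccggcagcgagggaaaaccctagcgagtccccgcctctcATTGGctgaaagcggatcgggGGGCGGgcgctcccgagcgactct
Elovl5: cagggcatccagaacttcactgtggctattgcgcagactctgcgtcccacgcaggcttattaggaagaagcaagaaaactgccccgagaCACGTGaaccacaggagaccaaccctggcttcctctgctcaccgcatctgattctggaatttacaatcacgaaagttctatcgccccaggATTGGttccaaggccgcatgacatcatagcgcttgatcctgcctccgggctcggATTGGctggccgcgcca
Fasn: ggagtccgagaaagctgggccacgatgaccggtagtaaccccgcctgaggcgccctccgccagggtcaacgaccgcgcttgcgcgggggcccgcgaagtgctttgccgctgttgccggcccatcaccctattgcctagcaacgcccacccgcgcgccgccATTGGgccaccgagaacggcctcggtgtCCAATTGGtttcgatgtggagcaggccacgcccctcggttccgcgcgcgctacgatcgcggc
The CCAAT box occurred in a promoter of all 14 sterol arm genes that had one and of 4 of 8 fatty acid arm genes (Elovl5, Fasn, Me1 and Srebf1), where 39.9% of the 9887 genes of the array with a promoter held it. At least 2 CCAAT boxes in 1 promoter were found for 8 of the 14 sterol arm genes, among them Idi1 and Hmgcs1, and for 2 of the 8 fatty acid arm genes, Elovl5 and Fasn, against 1385 of the 9887 genes of the array. In Fasn a CCAAT and an ATTGG overlap, so that its 3 matches cover 2 places. The GC box was found for 13 of 14 sterol arm genes and 4 of 8 fatty acid arm genes, against 57.0% of the genes of the array. The E-box was found for 3 of 14 and 1 of 8, against 9.19%, and the sterol regulatory element searched as ATCAC and CCAC with any 1 base between them was found for 0 of the 22 genes, against 0.202%. These are letter matches in a fixed window and not binding measurements.

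The 2 arms lay on opposite sides of 0. The median log2 difference was 0.26 over the 18 sterol arm genes and −0.26 over the 10 fatty acid arm genes, against −0.01 over all 12393 genes. In the sterol arm 15 of 18 genes were higher in the metastases, where 47.9% of all genes were. Pmvk (−0.60), Sc5d (−0.12) and Srebf2 (−0.02) were lower. The 15 included Mvk, which was too dim to read, and Msmo1, Lss, Mvd and Hsd17b7, which differed by 0.02 to 0.05. Of these, Hsd17b7 was below the own primary tumor in 7 of 9 metastases. In the fatty acid arm 8 of 10 genes were lower, where 51.8% of all genes were, and Elovl6 and Scd2 were higher. With all 16 tumors the medians were 0.33 and −0.35, against 0.01 over all genes. The direction of both medians was the same under every normalization, floor and left-out mouse, metastasis or site that was run. With low intensities raised to the 10th or 25th percentile, the sterol arm median was 0.18 and the difference between the arms 0.43.

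Single members were set beside the share of all genes called. In the paired fit 0 of the 28 genes passed an adjusted p of 0.05. Few genes of the array did, 0.355% as lower and 0.0161% as higher, so this count does not set the members apart. At an unadjusted p under 0.05, 3 of the 18 sterol arm genes were higher (Idi1, Dhcr7 and Stard4), where 4.37% of all genes were, and 1 was lower (Pmvk), where 7.11% were. At the same p 4 of the 10 fatty acid arm genes were lower (Elovl5, Acly, Scd1 and Fasn), where 7.11% of all genes were, and 0 were higher. At p under 0.01 the members were Elovl5 and Pmvk, both lower, where 2.93% of all genes were lower and 1.23% higher. In the fit over 16 tumors 5 sterol arm genes were higher at p under 0.05 (Cyp51, Fdps, Idi1, Nsdhl and Stard4), where 6.12% of all genes were, and the same 4 fatty acid arm genes were lower, where 6.89% were. In that fit Elovl5 alone of the 28 passed the adjusted threshold, where 1.11% of all genes passed as lower. The count of sterol arm genes higher at p under 0.05 was 1 without mouse 1, 1 without the liver metastasis of mouse 2 and 1 without both liver metastases. The count of fatty acid arm genes lower was 2 without mouse 3, and 1 without the metastasis of mouse 2 or without both liver metastases.

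**Figure D1:**
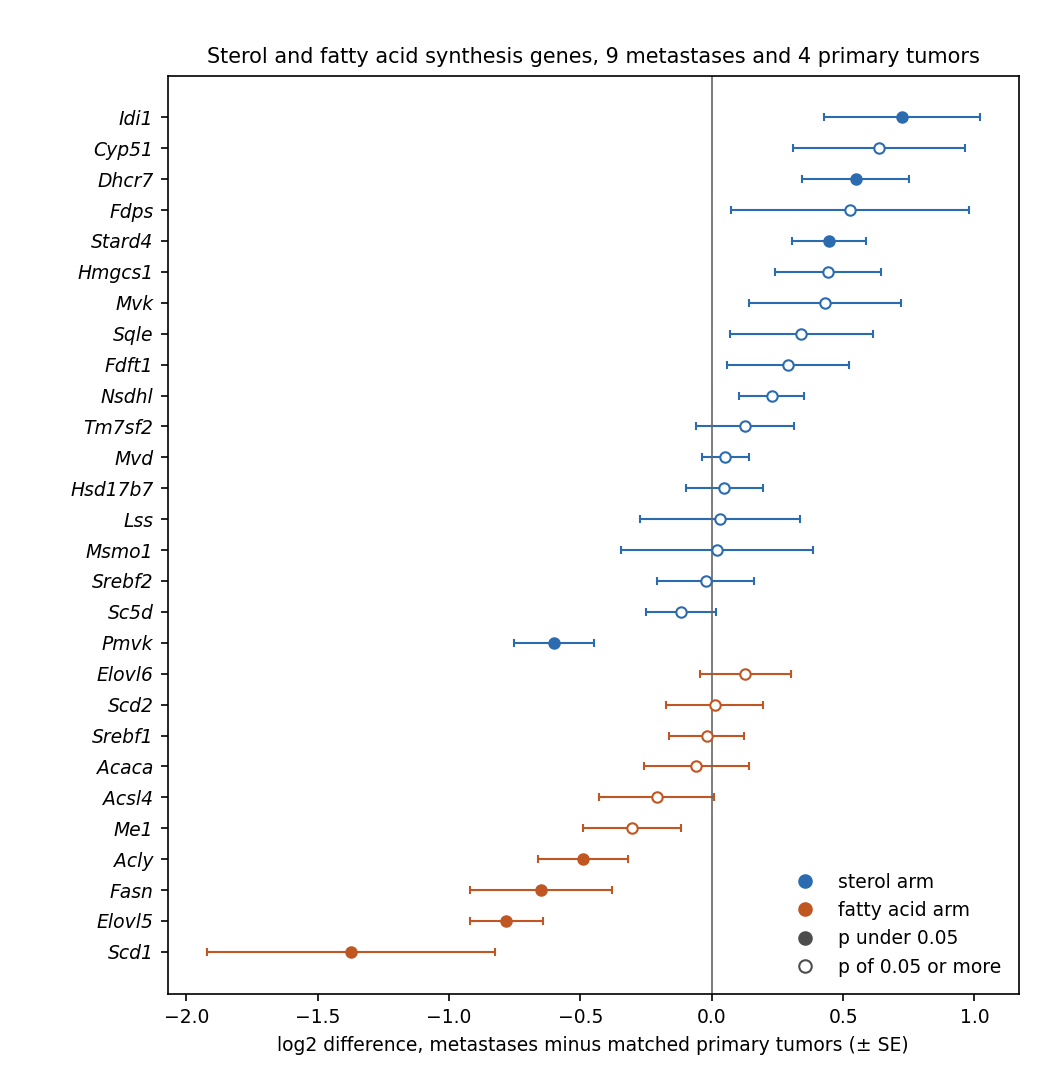
Log2 difference of the 28 measured genes, metastases minus matched primary tumors (9 metastases and 4 primary tumors, limma with mouse as a block), with the standard error as bars. Blue points are the sterol arm and orange points the fatty acid arm, filled where the unadjusted p was under 0.05. Most blue points lie right of 0, with Idi1 at 0.72 and Pmvk at −0.60 as the ends, and most orange points lie left of it, down to Scd1 at −1.37.

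Among the fatty acid genes the separation of the groups was complete for Elovl5, the elongase that lengthens polyunsaturated fatty acids. Elovl5 intensity was 361, 361 and 405 in the body wall, liver and inguinal metastases of mouse 1, 272 in the liver metastasis of mouse 2, 291, 314 and 463 in the lymph node, subcutaneous and heart metastases of mouse 3, and 463 and 474 in the nodal and pleural metastases of mouse 4. Against these, the primary tumors of mice 1 to 7 had 595, 592, 556, 804, 621, 692 and 627. All 9 metastases were therefore below all 7 primary tumors, including the 3 primary tumors that the paired fit did not use, and 0.379% of all genes were separated in this way. The mean was 378 ± 77.5 in the metastases (SD, n = 9) and 637 ± 113 in the matched primary tumors (SD, n = 4). The log2 difference was −0.78 ± 0.14 (SE), a fold of 0.582, with a Benjamini-Hochberg adjusted p of 0.0559 in limma. With all 16 tumors Elovl5 fell by 0.78 on the log2 scale with an adjusted p of 0.00552 in limma. Over 26 other settings its adjusted p ranged between 0.00552 and 0.338 and was under 0.05 in 8, and it was 0.338 when each mouse gave 1 mean ratio. A second Elovl5 probe set differed by −0.69, with an adjusted p of 0.0652 in the paired limma fit and 0.0108 over all 16 tumors.

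Scd1, the stearoyl-CoA desaturase that makes monounsaturated fatty acids, had the widest spread of any member. Its intensity was 1142, 1028 and 1223 in the body wall, liver and inguinal metastases of mouse 1, 198 in the metastasis of mouse 2, 520.3, 188 and 167 in the lymph node, subcutaneous and heart metastases of mouse 3, and 1872 and 1572 in the metastases of mouse 4. The primary tumors of mice 1 to 7 had 1456, 3569, 885, 1636, 3925, 3456 and 2954. The metastases of mice 2 and 3 were below all 7 primary tumors, those of mouse 1 were below their own primary tumor, and those of mouse 4 lay on both sides of theirs. The log2 ratio to the own primary tumor was −4.17 in mouse 2, and in mouse 3 it was −0.77 in the lymph node, −2.23 in the subcutaneous and −2.41 in the heart metastasis. The fitted difference was −1.37 ± 0.55 (SE), a fold of 0.386 (adjusted p = 0.37 in limma). The dimmer of its 2 probe sets differed by −0.89 (adjusted p = 0.201) and, with all 16 tumors, fell by 1.01 on the log2 scale (adjusted p = 0.0320 in limma).

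Its paralog Scd2, the desaturase that is widely expressed outside the liver, did not follow Scd1. Scd2 intensity was 2120.2, 2676 and 3229 in the body wall, liver and inguinal metastases of mouse 1, 1720.0 in mouse 2, 1242, 1604 and 1669.5 in the lymph node, subcutaneous and heart metastases of mouse 3, and 1506 and 1349 in mouse 4. The 7 primary tumors had, by mouse, 1745, 2392, 1839, 1357, 2157, 2920.4 and 2450.5. The groups overlapped, with 1 metastasis above all primary tumors and 2 below all of them. All 3 metastases of mouse 1 were above their primary tumor while those of mice 2 and 3 were below theirs, and the log2 difference was 0.01 ± 0.18 (SE, adjusted p = 0.991 in limma). With all 16 tumors it was −0.14, and its sign turned under several settings. The difference between the Scd1 and Scd2 responses was not tested.

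Fasn, the enzyme that builds palmitate, was low in some mice and not in others. Its intensity was 677, 608 and 1264 in the body wall, liver and inguinal metastases of mouse 1, 519 in mouse 2, 244, 278 and 418 in the lymph node, subcutaneous and heart metastases of mouse 3, and 1337 and 1076 in mouse 4. In mice 1 to 7 the primary tumors had 1142, 1222, 661, 1084, 1897, 706 and 1572. The metastases of mice 2 and 3 and the liver metastasis of mouse 1 were below all 7 primary tumors, whereas the inguinal metastasis of mouse 1 and the lymph node metastasis of mouse 4 were above their own. The log2 difference was −0.65 ± 0.27 (SE), a fold of 0.637 (adjusted p = 0.392 in limma).

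Acly, which encodes ATP-citrate lyase, differed from Fasn in mouse 3. Its intensity was 419.8, 448 and 548 in the body wall, liver and inguinal metastases of mouse 1, 361 in mouse 2, 573, 627 and 611 in the lymph node, subcutaneous and heart metastases of mouse 3, and 572 and 644 in mouse 4. The primary tumors of mice 1 to 7 had 842, 743, 561, 775, 736, 661 and 1004. The 4 metastases of mice 1 and 2 were below every primary tumor, and the 3 of mouse 3 were above their own primary tumor, which was the lowest of the 7. The log2 difference was −0.49 ± 0.17 (SE), a fold of 0.711 (adjusted p = 0.30 in limma). Of its 4 other probe sets 2 are dim, and the other 2 differed by −0.77 and −0.28.

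The other fatty acid members moved less. Acsl4, an acyl-CoA synthetase that activates polyunsaturated fatty acids, was 158, 154 and 219.8 in the body wall, liver and inguinal metastases of mouse 1, 407 in mouse 2, 158, 168 and 200.4 in the lymph node, subcutaneous and heart metastases of mouse 3, and 592 and 354 in mouse 4, against 307, 358, 234, 344, 539, 287 and 428 in the primary tumors of mice 1 to 7. The 6 metastases of mice 1 and 3 were below every primary tumor and the lymph node metastasis of mouse 4 was above every one, with a log2 difference of −0.21 ± 0.22 (SE, adjusted p = 0.785 in limma). Me1, the malic enzyme that supplies NADPH, differed by −0.30 ± 0.19 (SE). It lay below all primary tumors in the 3 metastases of mouse 3 and in the lymph node metastasis of mouse 4, and above all of them in the liver and inguinal metastases of mouse 1. Acaca, which encodes acetyl-CoA carboxylase, and Elovl6, the elongase that makes stearate from palmitate, differed by −0.06 and 0.13, with overlapping groups.

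**Figure D2:**
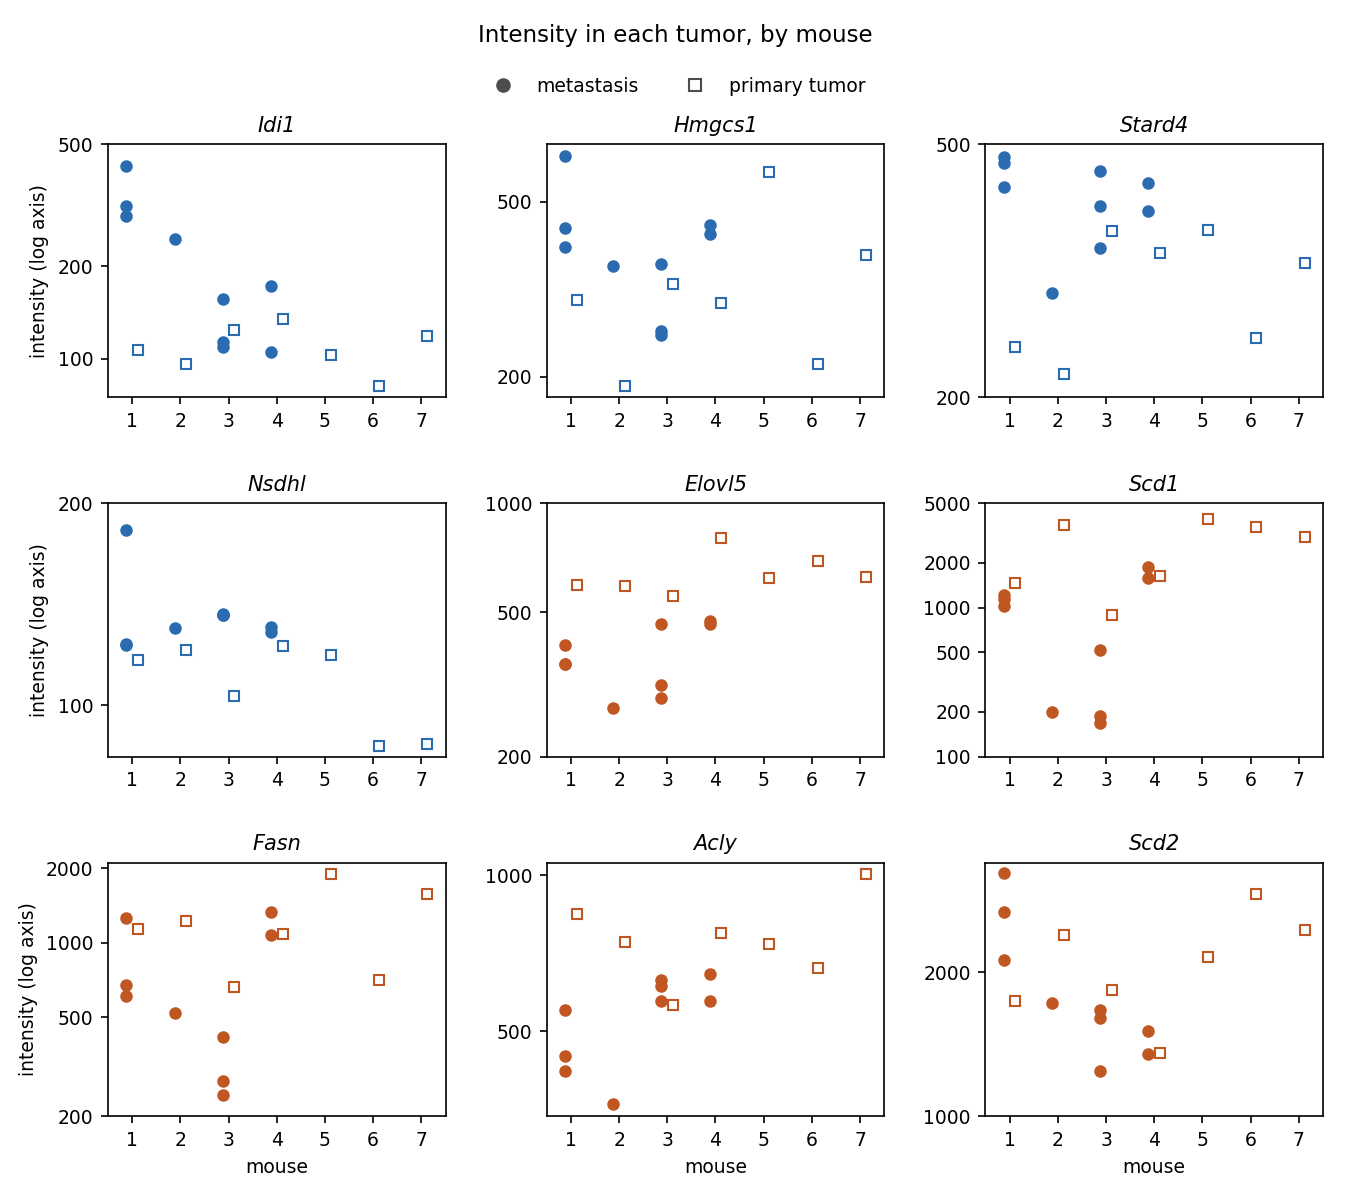
Deposited intensity (log axis) of 9 genes in each tumor, by mouse, with metastases as filled circles left of the primary tumor of the same mouse as an open square. Blue marks sterol arm genes and orange fatty acid arm genes. Elovl5 is lower in all 9 metastases (272 to 474) than in the 7 primary tumors (556 to 804). Among the metastases, Scd1 is lowest in those of mice 2 and 3, and Idi1 is highest in those of mice 1 and 2.

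In the sterol arm the largest difference was that of Idi1, the isomerase that interconverts the 2 five-carbon isoprenoid units. Its intensity was 313, 292 and 426 in the body wall, liver and inguinal metastases of mouse 1, 246 in mouse 2, 114, 109 and 157 in the lymph node, subcutaneous and heart metastases of mouse 3, and 105 and 172.1 in the nodal and pleural metastases of mouse 4. Against these, the primary tumors of mice 1 to 7 had 107, 96.0, 124, 135, 103, 81.5 and 119. The 4 metastases of mice 1 and 2, the heart metastasis of mouse 3 and the pleural metastasis of mouse 4 were above every primary tumor, and the other 3 were below their own. The log2 difference was 0.72 ± 0.30 (SE), a fold of 1.65 (adjusted p = 0.384 in limma), and it was 0.36 without mouse 1. A dimmer Idi1 probe set differed by 1.34 (adjusted p = 0.272).

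Stard4, a carrier that moves cholesterol between membranes, differed more evenly. It had 476, 427 and 466 in the body wall, liver and inguinal metastases of mouse 1, 292 in mouse 2, 343, 400.0 and 454 in the lymph node, subcutaneous and heart metastases of mouse 3, and 393 and 434 in mouse 4. The 7 primary tumors had, by mouse, 239.8, 217, 365, 337, 366, 248 and 325. Stard4 was above the own primary tumor in 8 of 9 metastases and above every primary tumor in 7, and it differed by 0.45 ± 0.14 (SE, adjusted p = 0.25 in limma). Its dimmer probe set differed by 0.05.

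Dhcr7, the reductase of the last step to cholesterol, was dimmer. It had 31.1, 44.2 and 64.7 in the body wall, liver and inguinal metastases of mouse 1, 41.4 in mouse 2, 54.2, 52.5 and 38.9 in the lymph node, subcutaneous and heart metastases of mouse 3, and 39.0 and 47.2 in mouse 4. The primary tumors of mice 1 to 4 had 27.9, 20.1, 39.5 and 34.2, and those of mice 5, 6 and 7 had 63.2, 65.5 and 32.1. Against the matched tumors the log2 difference was 0.55 ± 0.20 (SE, adjusted p = 0.333 in limma) with 8 of 9 metastases higher. With the 3 added primary tumors it was 0.32 (adjusted p = 0.599 in limma), and the primary tumors of mice 5 and 6 lay close to the highest metastasis.

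Pmvk, the kinase that adds the second phosphate to mevalonate, was lower in the metastases. It had 68.9, 57.2 and 57.6 in the body wall, liver and inguinal metastases of mouse 1, 65.7 in mouse 2, 42.2, 47.3 and 50.8 in the lymph node, subcutaneous and heart metastases of mouse 3, and 118 and 86.5 in mouse 4. In mice 1 to 7 the primary tumors had 84.7, 139.6, 53.6, 179.8, 73.5, 42.2 and 216. Each of the 9 metastases was below its own primary tumor, as was so for 3.66% of all genes, and the log2 difference was −0.60 ± 0.15 (SE), a fold of 0.659 (adjusted p = 0.154 in limma). The groups overlapped, because the primary tumors alone spanned 42.2 to 216, and with all 16 tumors the adjusted p was 0.41 in limma. Of the enzymes beside it in the pathway, Mvd, the decarboxylase after it, differed by 0.05, and Mvk, the kinase before it, was at or under 3.98 in every tumor and too dim to read.

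The following 5 sterol genes were chosen after their values had been seen. Nsdhl, a dehydrogenase that helps remove methyl groups from the sterol ring, had 123, 123 and 182 in the body wall, liver and inguinal metastases of mouse 1, 130.3 in mouse 2, 136, 137 and 136 in the lymph node, subcutaneous and heart metastases of mouse 3, and 129 and 131 in mouse 4, against 117, 121, 103, 123, 119, 87.1 and 87.5 in the primary tumors of mice 1 to 7. It was the 1 member whose 9 metastases were all above all 7 primary tumors, as was so for 0.0968% of all genes (2.04% were above their own primary tumor in all 9), but the margin was small. Its log2 difference was 0.23 ± 0.12 (SE, adjusted p = 0.544 in limma), and 0.31 with all 16 tumors (adjusted p = 0.204).

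Hmgcs1, which makes HMG-CoA, Sqle, the epoxidase that starts ring closure, Fdps, which joins isoprenoid units, and Msmo1, a methyl sterol oxidase, shared 1 feature, a maximum in the inguinal metastasis of mouse 1. Hmgcs1 was 394, 435 and 637 in the body wall, liver and inguinal metastases of mouse 1 and 249 to 442 in the other 6 metastases, against 191 to 585 in the primary tumors. Sqle was 305, 281 and 619 in those of mouse 1 and 132 to 227 in the other 6, against 129 to 218 in the primary tumors. Fdps was 462, 262 and 761 in those of mouse 1 and 98.7 to 372 in the other 6, against 70.4 to 200.4 in the primary tumors. Msmo1 was 174, 208 and 367 in those of mouse 1, 309 in the heart metastasis of mouse 3 and 98.5 to 144 in the other 5, against 62.9 to 224 in the primary tumors. In the paired fit none of the 4 passed an unadjusted p of 0.05, while Fdps had an unadjusted p of 0.0413 in limma over all 16 tumors. Without mouse 1 the log2 differences of the paired fit were 0.35 for Hmgcs1 (0.44 with it), 0.02 for Sqle, 0.12 for Fdps and −0.36 for Msmo1. Hmgcs1 has 4 probe sets, and with all 4 mice the dimmer ones differed by only 0.21, −0.03 and 0.08. Lss, Cyp51, Fdft1, Tm7sf2, Hsd17b7, Sc5d and Mvd, the other enzymes of the arm, differed by −0.12 to 0.64 with overlapping groups.

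**Figure D3:**
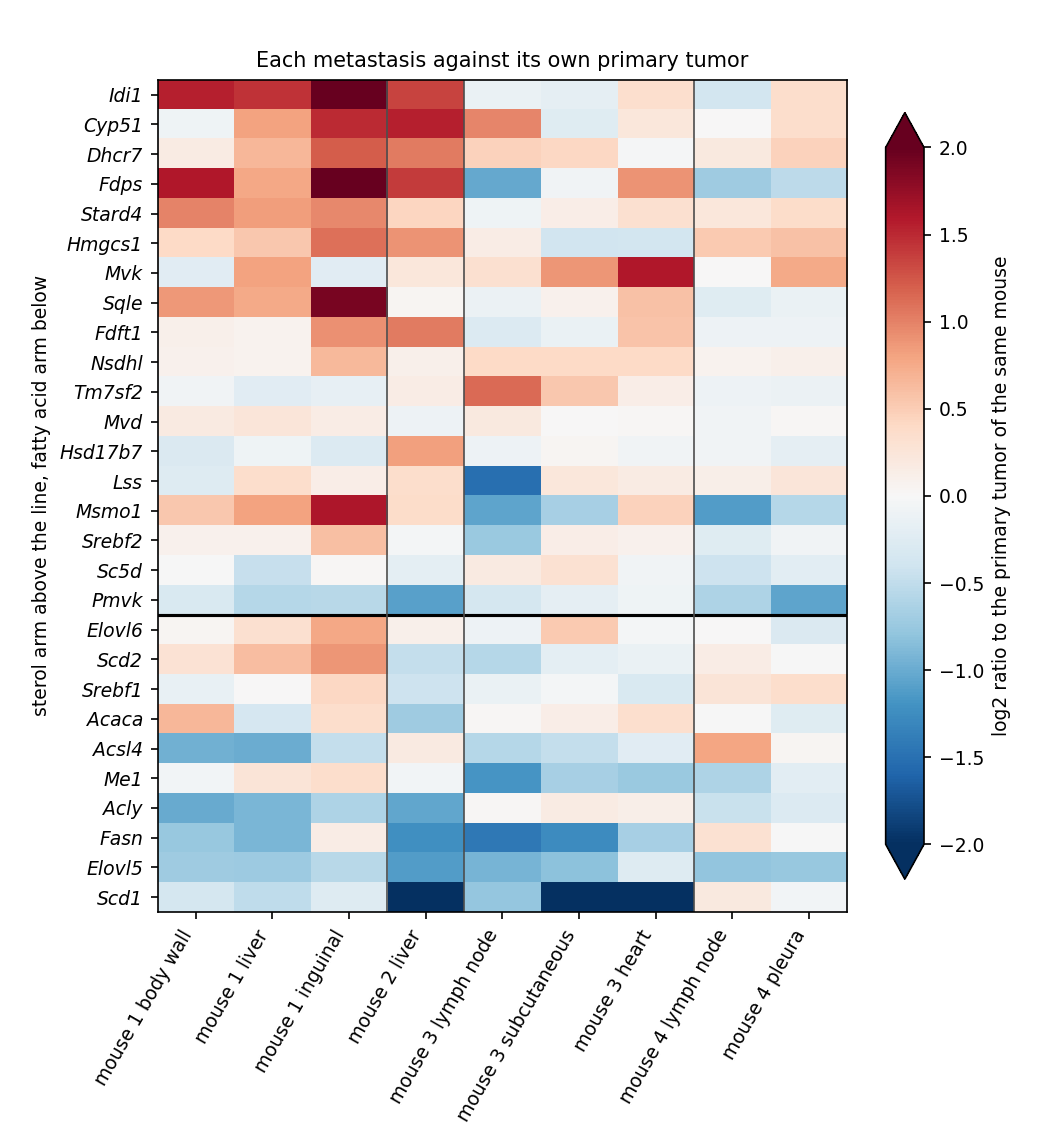
Log2 ratio of each of the 9 metastases to the primary tumor of the same mouse (columns, grouped by mouse) for the 28 genes (rows, sterol arm above the black line and fatty acid arm below it), with the colour scale cut at −2 and 2. The inguinal metastasis of mouse 1 is the reddest column of the sterol arm. The metastases of mouse 4 hold both signs there (Msmo1 −1.11 and −0.57, Hmgcs1 0.52 and 0.59). Elovl5 and Pmvk are below 0 in every column, Pmvk only slightly in the heart metastasis (−0.08).

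The transcripts of the regulators differed little. Srebf2 was 477, 481 and 683 in the body wall, liver and inguinal metastases of mouse 1, 502 in mouse 2, 299, 552 and 532 in the lymph node, subcutaneous and heart metastases of mouse 3, and 448 and 504 in mouse 4, against 452, 514, 502, 529.9, 410.4, 325 and 442 in the primary tumors of mice 1 to 7. Srebf1 was 502, 561 and 742 in those of mouse 1, 381 in mouse 2, 436, 469 and 386 in those of mouse 3, and 753 and 801 in those of mouse 4, against 556, 507, 479, 628, 549.8, 718 and 562 in the primary tumors. Both differed by −0.02, with standard errors of 0.19 for Srebf2 and 0.14 for Srebf1, and both signs turned with the normalization. Srebf1 was below every primary tumor in the 4 metastases of mice 2 and 3 and above every one in both metastases of mouse 4 and the inguinal metastasis of mouse 1. SREBP activity depends on cleavage of the protein, which an array does not measure.

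The arms were then compared within each metastasis, as the median log2 ratio to its own primary tumor. The sterol arm median was 0.09, 0.45 and 0.78 in the body wall, liver and inguinal metastases of mouse 1, 0.36 in mouse 2, −0.10, 0.06 and 0.20 in the lymph node, subcutaneous and heart metastases of mouse 3, and −0.09 and −0.03 in the nodal and pleural metastases of mouse 4. The fatty acid arm median was −0.25, −0.42 and 0.25 in those of mouse 1, −0.60 in mouse 2, −0.56, −0.34 and −0.24 in those of mouse 3, and 0.08 and −0.14 in those of mouse 4. The sterol median was above the fatty acid median in 8 of 9 metastases, with the widest gap, 0.96, in the mouse 2 liver metastasis, and was below it in the lymph node metastasis of mouse 4 (sterol minus fatty acid, −0.16). Because metastases of the same mouse were set against 1 shared primary tumor, these 9 values are not independent. The inguinal metastasis of mouse 1 had the highest intensity of the 16 tumors for 9 of the 18 sterol arm genes (Hmgcs1, Sqle, Idi1, Fdps, Fdft1, Cyp51, Msmo1, Nsdhl and Srebf2) and also for Scd2 and Me1. The share of all genes that were highest in this tumor was not counted. Over all 12393 genes its median log2 ratio was 0.07, the highest of the 9 metastases, with 6928 genes higher and 5258 lower. Without that metastasis the sterol arm median was 0.20 and the difference between the arm medians 0.48, against 0.52 with it.

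**Figure D4:**
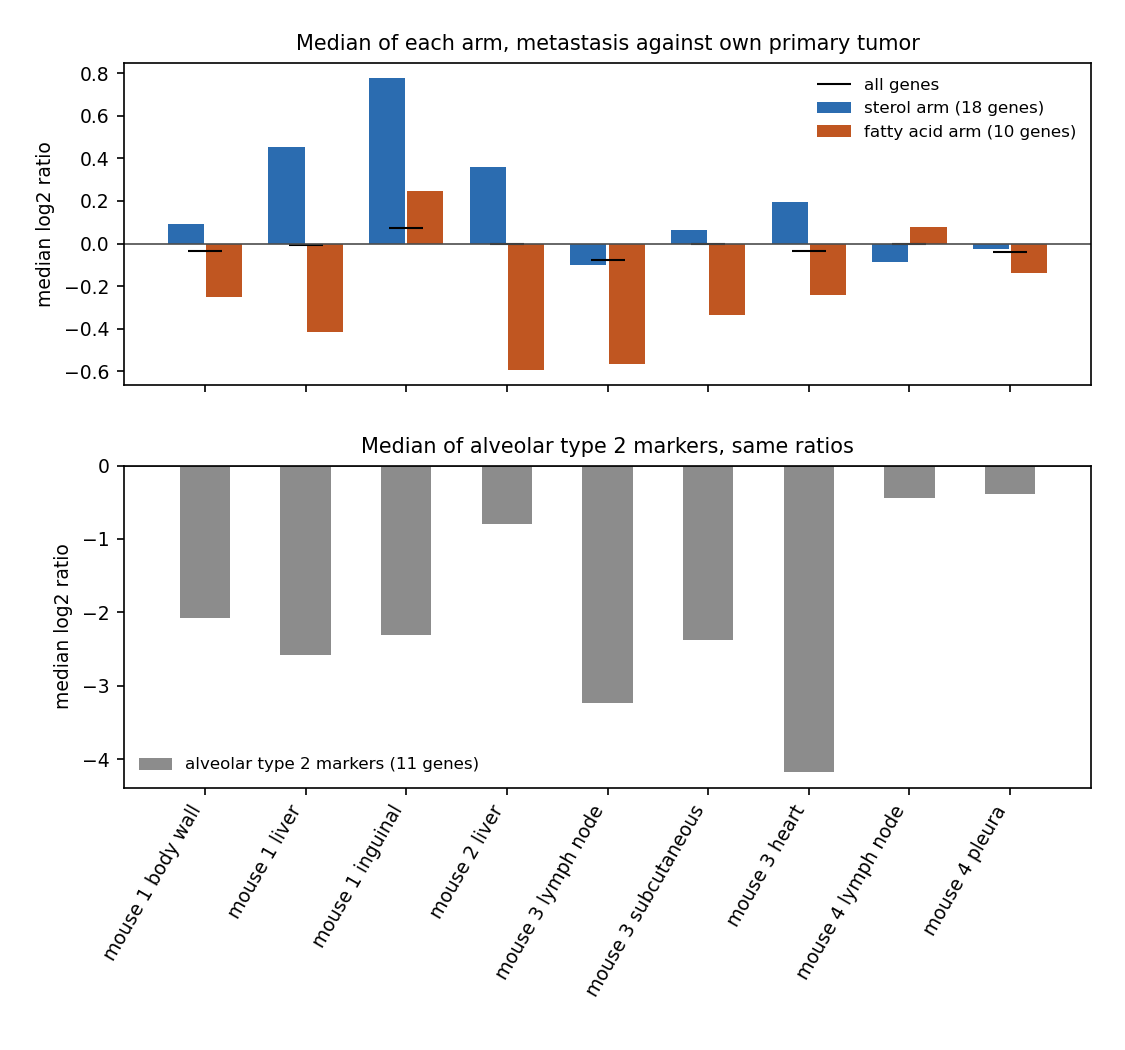
Upper panel, the median log2 ratio of the sterol arm (blue, 18 genes) and fatty acid arm (orange, 10 genes) in each metastasis against its own primary tumor, with the median of all 12393 genes as a black line. Lower panel, the same median for 11 alveolar type 2 markers. The blue bar is above the orange bar in 8 of 9 metastases, and the lower panel is nearest 0 in both metastases of mouse 4.

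Markers of other cells also differed between metastases and primary tumors. The summed intensity of 11 of 12 listed alveolar type 2 markers was 1751 to 35630 in the metastases, against 19759 to 57704 in the primary tumors, with 9 of the 11 lower at p under 0.05 and 0 past the adjusted threshold. The median log2 ratio of these markers was −0.44 and −0.39 in the nodal and pleural metastases of mouse 4, −0.79 in mouse 2 and −2.08 to −4.18 in mice 1 and 3. Scd1 and Fasn were near their primary tumor levels in mouse 4, and both were low in mouse 3, where surfactant protein C (Sftpc) was 87.5 to 123, against 4802 in its primary tumor. In the 3 metastases of mouse 1 all 11 markers were below the primary tumor, while the log2 ratio was −0.50 to −0.25 for Scd1 and −0.91 to 0.15 for Fasn. In mouse 2, where Scd1 and Fasn were low, Sftpc was 5639, against 8418 in its primary tumor, while Slc34a2, a phosphate carrier of the same cells, was 301, against 4639.6 in its primary tumor. The summed intensity of the 4 club cell markers, which mark secretory cells of the airways, was 217 to 629 in the 9 metastases, against 1533 to 4572 in the 7 primary tumors, without overlap as for Elovl5, and 4 of 4 were lower at p under 0.05 with 1 past the adjusted threshold. The 7 macrophage markers measured summed to 1678 to 9302 in the metastases, against 6329 to 12378 in the primary tumors, with 3 lower at p under 0.05, and the 6 endothelial markers summed to 494 to 1167 in the metastases, against 874 to 1395 in the primary tumors, with 2 lower. Of all genes 7.11% were lower at p under 0.05 and 0.355% passed the adjusted threshold as lower. Among single genes, 0.379% had all 9 metastases below all 7 primary tumors, a share that was not computed for sums. The part of these cells in the fatty acid values was not tested.

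Idi1 was highest in the 4 metastases from mice 1 and 2. In these the summed intensity of 11 of 12 hepatocyte markers was 5458 to 9826. The sum was 862 to 2545 in the 5 metastases from mice 3 and 4, against 893 to 1863 in the primary tumors. The median log2 ratio of these markers gave another order. It was highest in the liver metastases of mice 1 and 2 (3.05 and 0.95). The body wall (0.43) and inguinal (0.38) metastases of mouse 1 lay below the lymph node metastasis of mouse 4 (0.46), where Idi1 was 105. The pleural metastasis of mouse 4 and those of mouse 3 had −0.74 to 0.08. Albumin (Alb) was 1158, 3234 and 2761 in the body wall, liver and inguinal metastases of mouse 1, whereas fibrinogen beta (Fgb) was 5.34, 216 and 21.2 in the same tumors. The summed intensity of 8 of 10 adipocyte markers was 444 to 3408 in the metastases, against 688 to 1574 in the primary tumors. Adiponectin (Adipoq) was 440.4 in the body wall and 108 in the inguinal metastasis of mouse 1 and 337 in the lymph node metastasis of mouse 3, against at most 17.9 in the primary tumors. The heart and muscle markers summed to 359 to 3015 in the metastases, highest in that of the heart, against 331 to 463 in the primary tumors. They summed to 1469 in the inguinal metastasis of mouse 1, 968 in the subcutaneous metastasis of mouse 3 and at most 432 in the other metastases. The part of these tissues in the sterol values was not tested. Without the 2 liver metastases the sterol arm median was 0.22, and without the 3 body wall, subcutaneous and inguinal metastases it was 0.18.

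Other genes of the same pathways were read from a list of 50, of which 40 were measured. At an unadjusted p under 0.05, 6 were lower (7.11% of all genes) and 0 were higher (4.37% of all genes), and 0 passed the adjusted threshold. The median log2 difference was −0.15 over the 12 related sterol genes and −0.03 over the 28 related fatty acid genes. At p under 0.01 there were 3, all lower, where 2.93% of all genes were, and each was lower in all 9 metastases than in the own primary tumor, where 3.66% were.

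Npc2, which carries cholesterol out of lysosomes and is secreted in lung surfactant, was 5191, 5308 and 5072 in the body wall, liver and inguinal metastases of mouse 1, 6510.0 in mouse 2, 3249, 3597 and 2669 in those of mouse 3, and 7688 and 8037 in those of mouse 4, against 7098, 8219, 5222, 9336, 6394, 6335 and 7601 in the primary tumors of mice 1 to 7. Elovl1, the elongase of very long saturated fatty acids, was 476, 359.9 and 455 in those of mouse 1, 296 in mouse 2, 316, 503 and 487 in those of mouse 3, and 584 and 641 in those of mouse 4, against 731, 955, 542, 980.1, 536, 359 and 815 in the primary tumors. Insig2, which holds the SREBP escort protein in the endoplasmic reticulum, was 118, 174 and 143 in those of mouse 1, 129 in mouse 2, 120.2, 121 and 132 in those of mouse 3, and 137 and 163 in those of mouse 4, against 194, 213, 149, 242, 150.1, 142 and 120.5 in the primary tumors. For all 3 the range of the metastases overlapped that of the matched primary tumors and that of mice 5 to 7. The log2 differences were −0.46 for Npc2, −0.80 for Elovl1 and −0.51 for Insig2, with adjusted p of 0.151, 0.154 and 0.155 in limma.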

How the data were processed

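Total RNA of 16 tumors was hybridised to Affymetrix Mouse 430A 2.0 arrays, 1 array per tumor. The authors computed intensity values on a linear scale in dChip with its PM/MM difference model, in which each perfect match probe is set against its mismatch probe, with invariant set normalization, and these deposited values were used unchanged. Of 22690 probe sets 64 controls were left out. Intensities under 1 (3.71% of values) were raised to 1 and log2 taken, and the number of arrays limits the precision. Tumors were grouped by the labels, which also give the mouse. The limma 3.58.1 fit (R 4.3.3) had the mouse as a fixed block over 13 tumors (8 residual degrees of freedom), with Benjamini-Hochberg adjustment over 22626 probe sets. The pairing is by animal; deviations of a metastasis and its own primary tumor correlated at −0.00 to 0.40, the highest of the 4 mice in 6 of 9. The fit over 16 tumors used duplicateCorrelation (0.238). Gene symbols came from GEO's platform annotation, which can be old, and 20380 probe sets have exactly 1.

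Members and lists were chosen with earlier results of these data known. Values in every tumor are given for members with p under 0.05 (at least 4 per arm by smallest p), for Srebf1 and Srebf2, and for the Scd and Acsl paralogs measured. Related genes are named at p under 0.01. The alternatives were other floors, normalizations, blocks, prior, probe set rule, the methods' t-test and left-out mice, metastases or sites. The fit was tested on simulated data. Labels say tumors were dissected from adjacent tissue.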

Additional observations from a re-analysis of the deposited data

Results flagged for a closer look

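In 2 of 58 member and tissue groups a single tumor stood far from the rest, where chance gives about 5%. Nsdhl was 182 in the inguinal metastasis of mouse 1, and the next highest metastasis had 137. Mvk was 2.90 in the primary tumor of mouse 7 and the next highest primary tumor had 1.32, both near the floor of 1.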

How the results depend on the processing

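The arm medians kept their direction under all 26 settings. Leaving out 1 mouse or metastasis gave 0.18 to 0.36 for the sterol arm, −0.34 to −0.14 for the fatty acid arm, 1 to 5 sterol genes higher (main value 3), 1 to 4 fatty acid genes lower (main value 4) and 0 to 1 members past the adjusted threshold. Sterol genes higher at p under 0.05 numbered 5 with quantile normalization, with all 16 tumors and with the methods' t-test, and 1 without the liver metastases. Sterol genes lower numbered 0 with all 16 tumors. Fatty acid genes lower numbered 2 without the mouse block, so the pairing moved that count, and 1 with 1 mean ratio per mouse or without the liver metastases. Elovl5 was the 1 member past an adjusted p of 0.05 with the floor at the 10th percentile, quantile normalization, dim probe sets left out, all 16 tumors, the methods' t-test, a trended robust prior, gene means and without the heart metastasis. By the methods' t-test 3 sterol genes were higher at p under 0.01, where 3.87% of all genes were, and Pmvk and Elovl5 were lower, where 6.31% were. The related genes Npc2, Elovl1 and Insig2 passed the adjusted threshold as lower by that t-test, where 2.75% of all genes did. They passed it under no other of the 26 settings.

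Among the members whose settings were compared, the sign turned for Srebf1, Srebf2, Scd2, Msmo1 and Acsl4. Srebf1 was 0.040 after quantile normalization, 0.016 after median centring, 0.00057 in the methods' t-test and 0.084 without the liver metastases, and −0.13 to 0.072 with 1 mouse or metastasis left out. Srebf2 was 0.028 after quantile normalization, 0.012 after centring, 0.089 with all 16 tumors and 0.036 with gene means, and −0.13 to 0.056 with 1 left out. Scd2 was −0.14 with all 16 tumors, −0.028 with 1 ratio per mouse, −0.15 with gene means and −0.050 without the 3 body wall, subcutaneous and inguinal metastases, and −0.22 to 0.13 with 1 left out. Msmo1 was −0.071 without the liver and −0.074 without those 3 metastases, and −0.36 to 0.31 with 1 left out. Acsl4 was −0.42 to 0.026 with 1 left out. The cause was not tested. Genes near the floor, such as Mvk, have no readable level.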
